A study of Mus musculus with 12 samples.

Results

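Wild type mouse embryonic stem (ES) cells were compared at day 0, while they were kept with leukaemia inhibitory factor (LIF), and 7 days after LIF was withdrawn. Every library labelled wild type was used: 3 at day 0 and 3 at day 7, which makes 6 of the 12 whole-genome libraries of the series. All of them are labelled female, C57BL6/CAST hybrid and ES cells. The other 6 libraries, labelled as a Sirt7 knockout at the same days, entered the filter on low counts, the scaling and the shared estimate of spread. Their own change over the 7 days is compared with that of wild type only for the flagged genes near the end. PolyA-selected RNA was sequenced, and the deposited estimated counts summed to between 25190483 and 69079368 per wild type library. Levels are given as CPM, a gene's counts scaled to the size of its library and then between libraries, and changes as the log2 change from day 0 to day 7.

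LIF acts through gp130, JAK kinases and STAT3 to sustain the transcription factors of the naive pluripotent state, the state of the epiblast before implantation. Without it, cells pass through a formative state in which they become able to respond to signals for germ layers. Streak-like cells that express brachyury and Eomes are the usual route to mesoderm and endoderm, BMP favours lateral and extraembryonic mesoderm, and neural fate is the usual outcome where BMP and Nodal signalling are low.

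Several properties of the libraries touch all the results. A separate treatment label reads LIF for replicate 2 and None for replicates 1 and 3, at both days, so it follows the replicate number and not the day. The day 7 library of replicate 2 had 28.3 CPM of Nanog, a core pluripotency factor, between the 26.6 and 29.2 CPM of the other day 7 libraries. Sirt7 itself ran between 8.02 and 15.2 CPM in the wild type libraries and between 16.9 and 25.1 CPM in those labelled knockout. Its RNA was thus not lower where the label says knockout. Whether the labels or the kind of mutation account for this was not tested. Both groups compared here carry the same genotype label. There was no group kept with LIF for 7 days, so loss of LIF and time in culture cannot be told apart. Nothing in the labels says whether replicates came from separate cultures, so p-values measure the spread between these libraries, which may be technical. In bulk RNA, fewer cells of a type and less RNA per cell cannot be told apart.

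Most of the transcriptome moved. Of 19235 genes that passed the filter on low counts, 12519 (65.1%) passed the test at a Benjamini-Hochberg adjusted p of 0.05 in edgeR's quasi-likelihood test, 6335 (32.9%) higher and 6184 (32.1%) lower at day 7. The values of both groups did not overlap for 72.0% of the genes. The median log2 change over all genes tested was 0.01. Under upper quartile scaling that median shifted to -0.27, and 5167 genes were called higher against 7605 lower. A list of genes is therefore read against these backgrounds of 32.9% higher and 32.1% lower. Members that were tested had enough counts in at least 1 group, which favours genes that are high in one of them, so a high share of calls is a description of a list.

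**Figure D1:**
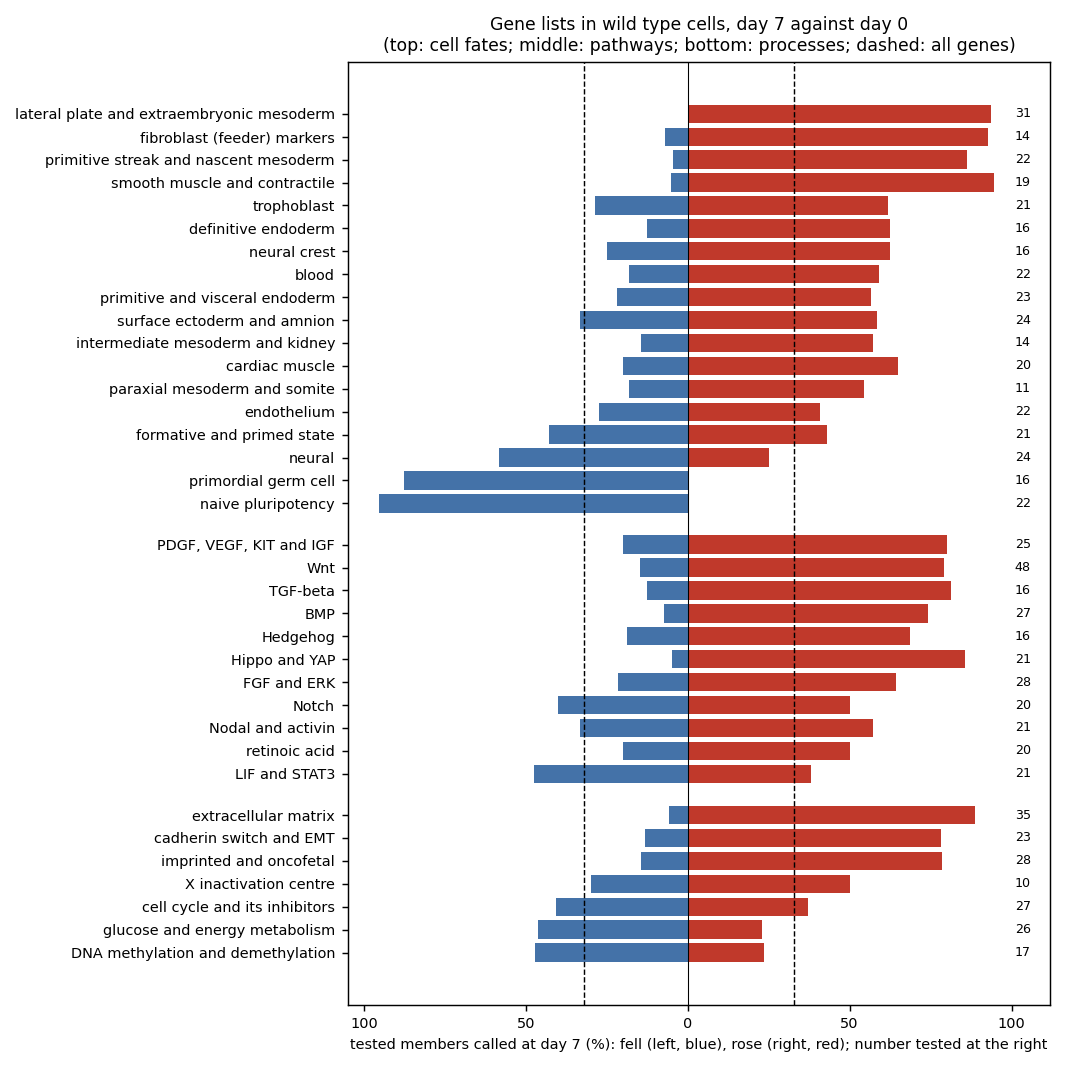
Share of the tested members of each gene list that were called higher (red, right) or lower (blue, left) at day 7 in wild type cells, in percent, with the number tested at the right of each bar and the shares over all genes as dashed lines at 32.9% and 32.1%. The bars of lateral plate mesoderm and smooth muscle lie almost wholly on the right, and those of naive pluripotency and primordial germ cells on the left.

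The naive pluripotency programme was lost. Of 22 members tested, 21 fell and none rose, with a median log2 change of -5.22, and their summed level went from between 9633 and 9897 CPM at day 0 to between 729 and 810 CPM at day 7, so the label of ES cells at day 0 is met by these markers. Nanog stood at 992, 1028 and 1065 CPM at day 0 and at 29.2, 28.3 and 26.6 CPM at day 7. It fell by 5.20 on the log2 scale (SE 0.09, adjusted p = 1.74e-11). Zfp42, which encodes the naive marker REX1, went from 531, 493 and 460 CPM to 2.22, 0.757 and 1.47 CPM (log2 change -8.42, SE 0.39). Pou5f1, which encodes OCT4, fell from 2765, 2631 and 2555 CPM to 157, 146 and 136 CPM, and Klf4 from 532, 533 and 504 CPM to 22.2, 23.7 and 20.4 CPM. Sox2, OCT4's partner, fell less far, from 309, 261 and 264 CPM to 66.3, 75.7 and 63.2 CPM (log2 change -2.02, SE 0.13). The groups did not overlap for any of these genes, and OCT4 and SOX2 transcripts stayed well above 0 at day 7. Tbx3 was the member that did not pass.

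POU factors such as OCT4 bind an octamer that contains the letters TTTGCAT, and the promoters of Nanog and Zfp42 are shown because both hold these letters close to the start and both genes were lost. The windows cover the 250 bases before the annotated start (RefSeq, build GRCm38.p6), at chr6:122707315-122707564 on the plus strand for Nanog and at chr8:43307010-43307259 on the minus strand for Zfp42. Capitals mark the motif, searched on both strands.
Nanog: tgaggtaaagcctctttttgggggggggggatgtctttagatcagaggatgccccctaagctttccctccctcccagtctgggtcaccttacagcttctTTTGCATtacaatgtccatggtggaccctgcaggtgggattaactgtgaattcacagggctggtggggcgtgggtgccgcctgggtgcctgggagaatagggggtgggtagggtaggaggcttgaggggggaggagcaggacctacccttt
Zfp42: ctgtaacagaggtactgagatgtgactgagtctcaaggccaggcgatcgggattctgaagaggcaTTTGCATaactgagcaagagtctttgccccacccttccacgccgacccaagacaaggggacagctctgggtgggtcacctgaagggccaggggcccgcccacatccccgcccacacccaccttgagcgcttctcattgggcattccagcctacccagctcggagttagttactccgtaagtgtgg
The motif lay in the window of 3 of the 13 naive genes that matched a promoter (23.1%), and in 3.9% of the 12315 tested genes that matched. A match is a description of the letters and not a measured binding site.

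Germline genes that naive ES cells also express went the same way. Of 16 primordial germ cell genes tested, 14 fell and none rose (median log2 change -3.71). Dppa3, a maternal factor kept in germ cells, fell from 49.6, 38.3 and 40.7 CPM to 0.694, 0.816 and 0.426 CPM. Dazl, an RNA-binding protein of germ cells, had 5.99, 4.12 and 5.87 CPM at day 0 and no counts at day 7, at least 242-fold lower when set against 3 counts over the group. Prdm1, the regulator that starts germ cell specification in the mouse, had 3, 7.53 and 7.4 CPM at day 0 and 6.68, 12.9 and 10 CPM at day 7, which overlap, and did not pass (adjusted p = 0.0754). It passed as a rise without the first day 7 library (log2 change 0.938, adjusted p = 0.0328) and with the replicate number as a block (0.783, adjusted p = 0.0144).

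Genes of the formative and primed states split evenly, 9 higher and 9 lower of 21 tested, or 42.9% each way against backgrounds of 32.9% and 32.1%. Fgf5, the ligand that marks the epiblast after implantation, rose from 0.24, 0.165 and 0.695 CPM to 26.3, 25.2 and 26.2 CPM (log2 change 6.18, SE 0.39), and Pou3f1 from 13.4, 10.5 and 19.1 CPM to 31.1, 29.8 and 49.9 CPM. Otx2, which acts in formative cells and later in the anterior head, fell from 28.2, 22.7 and 29.3 CPM to 9.55, 9.47 and 11.1 CPM. Utf1 (log2 change -5.52, SE 0.13) and Foxd3 (-6.68, SE 0.42) fell too. The de novo methyltransferase Dnmt3b, at 196, 139 and 135 CPM and then 147, 153 and 141 CPM, overlapped between days and did not pass.

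Of 22 tested genes of the primitive streak and nascent mesoderm, 19 rose and 1 fell, with a median log2 change of 4.56. T, which encodes brachyury, rose from 0.599, 0.471 and 0.417 CPM to 129, 144 and 131 CPM (log2 change 8.09, SE 0.22, adjusted p = 2.49e-10). Eomes, a T-box factor of early mesendoderm, rose from 6.27, 8.66 and 6.29 CPM to 102, 113 and 103 CPM. Mixl1 rose from 0.879, 0.965 and 0.486 CPM to 71.1, 70.1 and 64.4 CPM, and Mesp1, which marks nascent and cardiac mesoderm, from 0.679, 0.141 and 0.208 CPM to 14.9, 14.5 and 13.6 CPM. All day 7 libraries lay far above all day 0 libraries for each of these. The apelin receptor Aplnr, listed at 0 at day 0, reached 20.5, 23.7 and 22 CPM, at least 708-fold higher.

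In the list of lateral plate and extraembryonic mesoderm, 29 of 31 tested members rose and none fell, with a median log2 change of 6.07, or 5.62 with the genes that had no counts at day 0 set at their lower bounds. Hand1, a basic helix-loop-helix factor of extraembryonic and cardiac mesoderm, went from 2.92, 2.14 and 2.36 CPM to 2066, 1941 and 1828 CPM (log2 change 9.63, SE 0.13, adjusted p = 4.91e-12). Foxf1, the forkhead factor of splanchnic mesoderm, was at 0, 0 and 0.278 CPM and then at 136, 152 and 144 CPM. Its relative Foxf2 had no counts at day 0 and 51.7, 62.7 and 50.8 CPM at day 7, at least 1768-fold higher. These are changes from almost nothing to clear expression in every day 7 library. Msx1 rose from 0.399, 1.06 and 0.452 CPM to 344, 331 and 289 CPM, Tbx20 from 1.16, 0.494 and 0.208 CPM to 73.5, 90.3 and 81.6 CPM, and Twist2 from 0.12, 0.0471 and 0 CPM to 59.4, 92.9 and 56.6 CPM. The limb bud factor Prrx1 rose only to 1.87, 1.62 and 1.01 CPM from no counts. Tbx3 and Alx1 did not pass.

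Of 21 genes of the somite branch of mesoderm, the paraxial list, 11 had enough counts to be tested, of which 6 rose and 2 fell. Tbx6, at 1.88, 0.377 and 0.347 CPM and then 2.64, 1.8 and 1.28 CPM, overlapped between days and did not pass, though it did without the first day 0 library (log2 change 2.39, adjusted p = 0.00508). Meox1 did not pass either, and Tcf15, a factor of early somites that naive cells also express, fell from 134, 120 and 114 CPM to 1.64, 0.816 and 1.43 CPM. For the kidney and intermediate mesoderm list, 8 of 14 rose and 2 fell. Pax2 did not pass, and Pax8 fell to between 0.104 and 0.185 CPM.

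**Figure D2:**
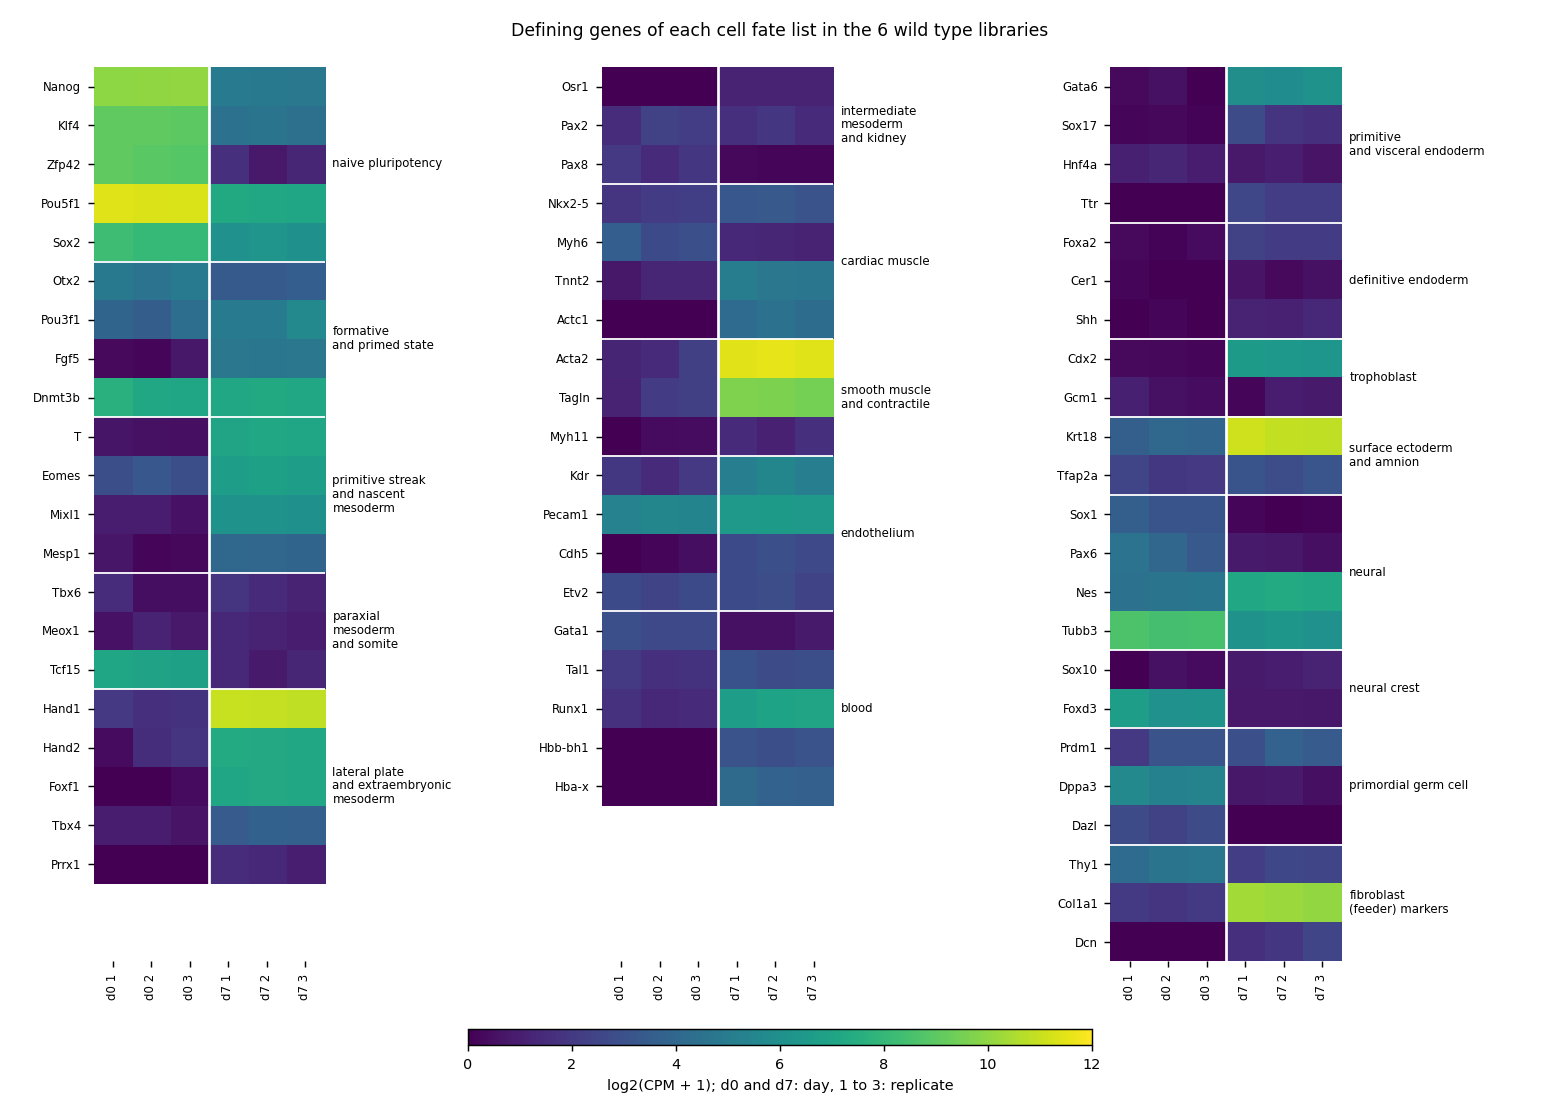
Level of the defining genes of each cell fate list in the 6 wild type libraries, as log2(CPM + 1) by colour, with day 0 replicates 1 to 3 left of the white line and day 7 replicates 1 to 3 right of it. Within each day the 3 libraries look alike. Hand1, Acta2 and Krt18 turn from dark to bright, while Nanog, Zfp42, Tcf15 and Foxd3 turn from bright to dark.

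Contractile genes of the smooth muscle type rose in 18 of 19 tested members (median log2 change 3.93). Acta2, the smooth muscle alpha actin, went from 1.4, 1.7 and 3.79 CPM to 2851, 2995 and 2764 CPM (log2 change 10.30, SE 0.33, adjusted p = 6.00e-10). Tagln, an actin-binding protein of the same cells, rose from 1.24, 3.27 and 3.89 CPM to 807, 799 and 725 CPM, and Cnn1, which encodes calponin, from 2.64, 4.26 and 3.51 CPM to 124, 120 and 124 CPM. Myh11, the myosin of mature smooth muscle, rose to 1.8, 1.13 and 2.13 CPM from 0, 0.283 and 0.313 CPM (adjusted p = 0.00692). Desmin was the member that fell. Acta2 and Tagln are also made by mesenchymal and epithelial cells under tension.

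Serum response factor (SRF) drives contractile genes through the CArG box, and the promoters of Myl9, a myosin light chain, and of Srf itself are shown because they hold it. The windows are the 250 bases before the annotated start (RefSeq, GRCm38.p6), at chr2:156775214-156775463 on the plus strand for Myl9 and at chr17:46556163-46556412 on the minus strand for Srf. Capitals mark CArG boxes, searched on both strands.
Myl9: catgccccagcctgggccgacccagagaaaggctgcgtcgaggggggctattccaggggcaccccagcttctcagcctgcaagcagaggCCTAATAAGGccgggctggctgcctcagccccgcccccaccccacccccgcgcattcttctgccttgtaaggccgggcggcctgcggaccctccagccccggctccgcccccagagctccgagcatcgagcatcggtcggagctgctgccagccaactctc
Srf: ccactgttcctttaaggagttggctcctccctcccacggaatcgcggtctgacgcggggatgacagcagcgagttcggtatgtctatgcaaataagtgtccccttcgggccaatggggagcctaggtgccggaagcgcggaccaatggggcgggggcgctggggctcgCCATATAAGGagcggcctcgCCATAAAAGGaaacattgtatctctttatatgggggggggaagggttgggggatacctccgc
Of the 15 contractile genes with a matching promoter, 4 held the box in this window (26.7%), against 1.47% of the 12315 tested genes that matched.

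Fibroblast markers were tracked as well, because ES cells are often grown on feeder fibroblasts and because they overlap with mesenchyme and matrix genes. Of 14 tested, 13 rose and 1 fell, and their summed level went from between 579 and 629 CPM to between 5697 and 6213 CPM. Col1a1 rose from 3.16, 2.64 and 3.09 CPM to 1293, 1165 and 1070 CPM, and Dcn, a small matrix proteoglycan, from no counts at day 0 to 2.2, 2.67 and 4.72 CPM. Col3a1, Dcn and Lum had no counts in any day 0 library. Thy1, used to sort fibroblasts, fell from 17.6, 23.8 and 25.3 CPM to 3.49, 5.05 and 4.65 CPM. Their part in the rise of the mesoderm, contractile and matrix genes was not tested.

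Cardiac genes moved in both directions, with 13 of 20 tested members higher and 4 lower. The cardiac actin Actc1 had no counts at day 0 and 17.3, 21.1 and 17.7 CPM at day 7, at least 600-fold higher. Troponin T (Tnnt2) rose from 0.719, 1.44 and 1.42 CPM to 31.8, 25.9 and 25 CPM, and Nkx2-5, the homeobox factor of the heart field, from 2.56, 3.25 and 3.68 CPM to 8.44, 9.28 and 7.39 CPM. The adult-type myosin Myh6 instead fell from 10.9, 5.58 and 6.57 CPM to 1.55, 1.43 and 1.2 CPM, and titin (Ttn) from 6.95, 7.84 and 10 CPM to 0.37, 0.995 and 0.503 CPM. The groups did not overlap for any of these 5 genes.

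Blood and endothelial genes were present at low to moderate levels. In the blood list 13 of 22 tested members rose and 4 fell. Runx1, required for definitive blood, rose from 2.24, 1.62 and 1.81 CPM to 106, 123 and 127 CPM, and the embryonic globins Hba-x and Hbb-bh1, with no counts at day 0, reached 16.6, 12.8 and 11.7 CPM and 7.38, 6.34 and 7.39 CPM. Tal1 rose from 3.16, 2.07 and 2.4 CPM to 7.03, 5.73 and 6.27 CPM, whereas Gata1, the regulator of red cells, fell from 6.63, 5.2 and 5.25 CPM to 0.462, 0.475 and 0.813 CPM. In the endothelial list, 9 of 22 rose and 6 fell, shares of 40.9% and 27.3%, near the background. Kdr, the VEGF receptor of early mesoderm and endothelium, rose from 2.8, 1.67 and 2.95 CPM to 34.3, 44.3 and 34.3 CPM, and Flt1 from 0, 0.424 and 0.417 CPM to 68.4, 81.9 and 69.2 CPM. Etv2, the factor that starts the endothelial programme, overlapped between days at about 5 CPM and did not pass (adjusted p = 0.759).

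Endoderm genes rose in part. In the primitive and visceral endoderm list 13 of 23 tested members rose and 5 fell, and in the definitive endoderm list 10 of 16 rose and 2 fell. Gata6 went from 0.24, 0.471 and 0 CPM to 59.9, 56.2 and 68.2 CPM, and Gata4 from 4.39, 3.55 and 3.96 CPM to 103, 106 and 99.1 CPM. Both of these also serve cardiac and lateral mesoderm. The more specific factors stayed low: Sox17 rose from 0.12, 0.212 and 0.0695 CPM to 5.85, 2.55 and 2.13 CPM, and Foxa2 from 0.24, 0.0706 and 0.278 CPM to 4.23, 3.38 and 3.33 CPM. Transthyretin (Ttr), a secreted product of visceral endoderm, reached 4.83, 3.56 and 3.6 CPM from no counts. Hnf4a, at 1.08, 1.44 and 0.938 CPM and then 0.763, 1.04 and 0.542 CPM, did not pass, and alpha-fetoprotein (Afp) had no counts in any wild type library.

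Trophoblast and surface ectoderm genes also moved in both directions. Of 21 trophoblast genes tested, of 30 listed, 13 rose and 6 fell. Of 24 tested surface ectoderm and amnion genes, of 27 listed, 14 rose and 8 fell. The shares that fell, 28.6% and 33.3%, are near the background of 32.1%. The keratins of simple epithelia were among those that rose: Krt8 went from 20.7, 30.2 and 29.5 CPM to 2834, 2589 and 2411 CPM, and Krt18 rose from 11.3, 15.2 and 13.9 CPM to 2222, 1925 and 1868 CPM (log2 change 7.21, SE 0.15). Cdx2, a factor of trophoblast and of posterior mesoderm, rose from 0.24, 0.188 and 0.139 CPM to 91.5, 83.4 and 78.3 CPM, and Plac1 from 0, 0 and 0.104 CPM to 31.8, 33.1 and 33.4 CPM. Genes that define the placenta more closely did not follow. Gcm1 did not pass (adjusted p = 0.951), Elf5, Prl3d1 and Tpbpa had no counts in any wild type library, and Tfap2c fell from 43.6, 47 and 39.8 CPM to 15.1, 17.4 and 14.1 CPM. On the ectoderm side, Dlx3 rose from 0.439, 0 and 0.347 CPM to 19.4, 19.4 and 18 CPM and Tfap2a by only 1.05 on the log2 scale. Krt5 had 0 counts at day 0 and 3 at day 7 in total, and Trp63, the regulator of stratified epithelium, had 8 and 18.

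Neural genes were lower on the whole: 14 of 24 tested members, of 30 listed, fell and 6 rose (median log2 change -1.90). Sox1, the first marker of neural ectoderm, fell from 11.6, 7.79 and 7.82 CPM to 0.162, 0.0297 and 0.0774 CPM (log2 change -6.69, SE 0.66), and Pax6 from 23.1, 14.8 and 9.31 CPM to 0.832, 0.683 and 0.426 CPM. The neuronal tubulin Tubb3 fell from 404, 357 and 368 CPM to 69.4, 81.1 and 65.8 CPM, and Stmn2 from 487, 547 and 554 CPM to 68.6, 64.8 and 61 CPM. Nes, an intermediate filament of neural progenitors that other dividing cells also make, rose from 21.4, 23.8 and 24 CPM to 144, 162 and 143 CPM. The neural crest list was mixed, with 10 of 16 higher and 4 lower. Sox9, shared with cartilage and other tissues, rose from 0, 0.141 and 0 CPM to 31.4, 30.6 and 25.8 CPM. Sox10, the more restricted marker, stayed between 0.809 and 1.28 CPM at day 7, and its call was lost when any one of 5 libraries was left out, with an adjusted p of 0.0510 to 0.109. Pax3 had 0 counts at day 0 and 11 at day 7 in total.

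Among signalling pathways, the genes of the LIF receptor chain stayed expressed or rose, while several STAT3 targets fell. Of 21 LIF and STAT3 genes, 8 rose (38.1%) and 10 fell (47.6%), against backgrounds of 32.9% and 32.1%. The receptor gene Lifr rose from 46.9, 51 and 51.2 CPM to 57.8, 64.3 and 62.2 CPM (log2 change 0.31, SE 0.08). That call was lost under upper quartile scaling (log2 change 0.025). The co-receptor gp130 (Il6st) rose from 7.99, 26.3 and 39.4 CPM to 90.4, 109 and 93.5 CPM, and Jak2 from 1.88, 1.65 and 1.67 CPM to 19.2, 22.7 and 18.3 CPM. Stat3 overlapped, at 46.6, 26.9 and 42.7 CPM and then 32.6, 37.3 and 26.4 CPM, and did not pass (adjusted p = 0.253). It did pass, as a fall of 0.472 on the log2 scale, without the second day 0 library (adjusted p = 0.0264). Socs3, the inhibitor that STAT3 induces, fell from 82.4, 75.6 and 76.1 CPM to 33.4, 35.5 and 30.8 CPM, and Bcl3 from 86.9, 89.2 and 100 CPM to 2.36, 2.18 and 2.83 CPM.

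FGF signalling exchanged its ligands. Fgf4, the autocrine ligand of naive cells, fell from 246, 234 and 257 CPM to 1.71, 2.46 and 1.35 CPM (log2 change -7.01, SE 0.22). Fgf8, a ligand of the streak, rose from 0.439, 1.37 and 1.18 CPM to 36, 44.7 and 28.7 CPM alongside the rise of Fgf5. The receptor genes Fgfr1 to Fgfr4 all rose: Fgfr1 went from 138, 144 and 158 CPM to 498, 557 and 507 CPM, and Fgfr2 from 12.7, 18.2 and 17.3 CPM to 96.8, 106 and 100 CPM. Of 28 members 18 rose and 6 fell. The targets did not move together, since Dusp6 rose (log2 change 3.43, SE 0.57) while Etv5 (-2.49, SE 0.08) and Spry4 (-2.33, SE 0.12) fell.

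Ligands, antagonists and targets also moved apart in the Nodal and BMP lists. Of 21 Nodal and activin genes, 12 rose (57.1%) and 7 fell (33.3%), the second share near the background of 32.1%. The ligand Nodal, at 64, 59.5 and 62.6 CPM and then 71.5, 73.6 and 68.3 CPM, was called higher by only 0.20 on the log2 scale (SE 0.08, adjusted p = 0.0417). That call was lost without either of 2 day 0 libraries or either of 2 day 7 libraries (adjusted p = 0.0800 to 0.129), and its sign turned under upper quartile scaling. Its antagonists and targets Lefty1 (log2 change -1.46, SE 0.39) and Lefty2 (-2.63, SE 0.46) were called lower. Lefty1 overlapped between days, at 15.2, 66.6 and 63.1 CPM and then 16.2, 19.2 and 17.2 CPM. Lefty2 was at 24.4, 128 and 120 CPM and then at 15.3, 14.4 and 14.5 CPM. The first day 0 library was thus far below the others of its day for both. The ligand Gdf3 fell from 254, 243 and 261 CPM to 5.76, 6.16 and 6.19 CPM. For BMP, 20 of 27 rose and 2 fell. The ligands Bmp4 (73.7, 45.7 and 47.2 CPM, then 283, 263 and 243 CPM) and Bmp2 (0.32, 0.259 and 0.452 CPM, then 89.4, 95.9 and 81.6 CPM) rose, with the transducer Smad1, the inhibitor Smad6 and the targets Msx1 and Msx2. The immediate targets Id2 and Id3 rose, whereas Id1 stood at 108, 83.9 and 75.2 CPM and then at 95.9, 87.1 and 81.9 CPM and did not pass (adjusted p = 0.951).

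Wnt genes rose broadly, 38 of 48 tested against 7 that fell, with a median log2 change of 3.27. Among ligands, Wnt3, which acts at the streak, rose from 0.519, 0.188 and 0.452 CPM to 51.2, 57.5 and 51.9 CPM, and Wnt5a, a noncanonical ligand of mesoderm, from 1.08, 0.612 and 0.174 CPM to 162, 130 and 107 CPM. Among targets and inhibitors, Axin2 rose from 4.87, 3.44 and 5.25 CPM to 56.1, 48.2 and 60 CPM, and Dkk1 from 0.24, 0.118 and 0 CPM to 35.8, 43.6 and 34.7 CPM. The nuclear factors moved in opposite directions. Lef1 rose from 5.15, 4.24 and 3.82 CPM to 102, 114 and 123 CPM. Tcf7l1, the repressor of naive cells, fell from 401, 339 and 373 CPM to 255, 239 and 207 CPM, still above Lef1. Of the secreted Sfrp inhibitors, Sfrp1, Sfrp2, Sfrp4 and Sfrp5 were all among those that fell.

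The TGF-beta list rose in 13 of 16 tested members, with Tgfb2 up from 0.439, 0.33 and 0.764 CPM to 143, 176 and 155 CPM and Thbs1, which encodes the TGF-beta activator thrombospondin, from 0.959, 0.283 and 0.382 CPM to 173, 272 and 200 CPM. Hippo genes rose in 18 of 21. The YAP and TEAD target Ccn1 went from 12.9, 12.5 and 13.8 CPM to 257, 293 and 244 CPM, Amot from 0.799, 0.73 and 1.49 CPM to 299, 448 and 372 CPM, and Ankrd1, another such target, from 0.0799, 0 and 0 CPM to 32.3, 28.4 and 30.2 CPM. Growth factor receptors of mesenchyme rose too: Pdgfra from 0.799, 0.541 and 0.764 CPM to 87.2, 97.1 and 92 CPM, and Pdgfrb from 1.24, 1.34 and 1.74 CPM to 252, 272 and 244 CPM. In that list of PDGF, VEGF, KIT and IGF genes 20 of 25 rose and 5 fell, Kit among those that fell (log2 change -1.54, SE 0.17).

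Notch, Hedgehog and retinoic acid genes were divided. Of 20 Notch genes 10 rose and 8 fell, with Notch3 up from 16.2, 22.4 and 20.3 CPM to 332, 389 and 314 CPM and the ligand Jag1 down from 6.63, 8.4 and 7.37 CPM to 1.78, 3.28 and 4.22 CPM. Of 16 Hedgehog genes 11 rose and 3 fell. The receptor Ptch1 rose by 2.05 on the log2 scale (SE 0.25), but Gli1, the target most often used to read the pathway, fell from 32, 36.6 and 38.8 CPM to 3.03, 3.84 and 4.1 CPM, and the ligand Shh reached only 1.25, 1.16 and 1.51 CPM. Of 20 retinoic acid genes 10 rose and 4 fell. Cyp26a1, the enzyme that degrades retinoic acid, rose from 0.999, 0.283 and 0.382 CPM to 57.4, 61.8 and 51.9 CPM, while Aldh1a2, the main enzyme that makes it in the early embryo, stayed between 1.01 and 1.48 CPM in all 6 libraries (adjusted p = 0.985).

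Adhesion and matrix genes changed with the mesenchymal fates. Cdh2, which encodes N-cadherin, rose from 4.15, 3.15 and 3.72 CPM to 272, 350 and 295 CPM, and Cdh11 from 0.16, 0.471 and 0.347 CPM to 280, 385 and 324 CPM. Cdh1, which encodes E-cadherin, was kept: 218, 216 and 215 CPM became 154, 188 and 161 CPM, a fall of 0.37 on the log2 scale (SE 0.12, adjusted p = 0.0177) that was lost without the first or the third day 7 library (adjusted p = 0.0722 and 0.0614). The repressors of epithelial genes rose, Snai1 from 6.19, 5.46 and 5.49 CPM to 94.8, 102 and 86.7 CPM and Zeb2 from 0.16, 0.212 and 0 CPM to 21.6, 37 and 25 CPM. Of 23 genes of the cadherin switch list 18 rose and 3 fell. In the matrix list 31 of 35 rose and 2 fell (median log2 change 4.22, or 4.13 with genes at their lower bounds). Fn1, which encodes fibronectin, rose from 275, 240 and 169 CPM to 1480, 1990 and 1960 CPM, and Postn from 0, 0 and 0.104 CPM to 97.8, 136 and 120 CPM.

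Imprinted and oncofetal genes rose in 22 of 28 tested members. The growth factor Igf2 went from 0.2, 0.0706 and 0.799 CPM to 1379, 1353 and 1237 CPM (log2 change 11.95, SE 0.55, adjusted p = 8.58e-09), its neighbour H19 from 58.7, 19.4 and 23.7 CPM to 2569, 1981 and 2011 CPM, and Mest from 104, 97.3 and 102 CPM to 3404, 3940 and 3655 CPM. Peg3 was uneven, at 154, 250 and 1620 CPM at day 7, with the third library far above the others. Hmga2, a chromatin protein of fetal growth, rose from 15.5, 20 and 18.9 CPM to 363, 412 and 381 CPM.

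Of the methylation genes, 4 of 17 rose (23.5%) and 8 fell (47.1%), against backgrounds of 32.9% and 32.1%. Dnmt3l, the cofactor of de novo methylation, fell from 255, 216 and 212 CPM to 4.19, 3.9 and 4.88 CPM, Tet1 from 126, 126 and 127 CPM to 11.4, 13 and 17 CPM, and Tet2 from 70.9, 75.8 and 59 CPM to 2.91, 0.772 and 3.64 CPM. Cell cycle genes moved both ways, with 10 of 27 higher and 11 lower. These shares of 37.0% and 40.7% are near the backgrounds of 32.9% and 32.1%. Ccnd2 rose from 6.95, 4.61 and 6.08 CPM to 145, 124 and 123 CPM and the inhibitor Cdkn1a from 61.8, 58.7 and 57.5 CPM to 230, 229 and 207 CPM, whereas Ccne1 fell from 409, 372 and 368 CPM to 58.9, 59.3 and 53.9 CPM and Mybl2 from 1515, 1365 and 1386 CPM to 151, 156 and 145 CPM. In energy metabolism 6 of 26 rose (23.1%) and 12 fell (46.2%), against the same backgrounds. The glucose transporter Slc2a1 rose from 303, 330 and 345 CPM to 3358, 3252 and 3005 CPM, and Tdh, the threonine dehydrogenase on which mouse ES cells depend, fell from 616, 636 and 632 CPM to 4.79, 7.24 and 4.3 CPM.

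At the X inactivation centre, Xist, the RNA that coats the inactive X chromosome, rose from 29.6, 36.3 and 41 CPM to 338, 390 and 389 CPM (log2 change 3.38, SE 0.12, adjusted p = 1.48e-09). Its antisense partner Tsix fell from 27.6, 60.8 and 14.5 CPM to 0.902, 0.445 and 0.426 CPM (log2 change -5.84, SE 0.99). No strand setting is given in the sources used here, so reads of this overlapping pair may be shared between them. Rlim, whose protein promotes Xist expression, had 65.4, 70.3 and 71.6 CPM at day 0 and 98.4, 84.5 and 12.3 CPM at day 7. The third day 7 library stood apart: with it Rlim did not pass (adjusted p = 0.896), and without it the log2 change was 0.412 (adjusted p = 0.0294). Over the 768 X-linked genes tested, 194 rose (25.3%) and 331 fell (43.1%), with a median log2 change of -0.43. Over autosomal genes 33.3% rose and 31.7% fell, with a median of 0.03.

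**Figure D3:**
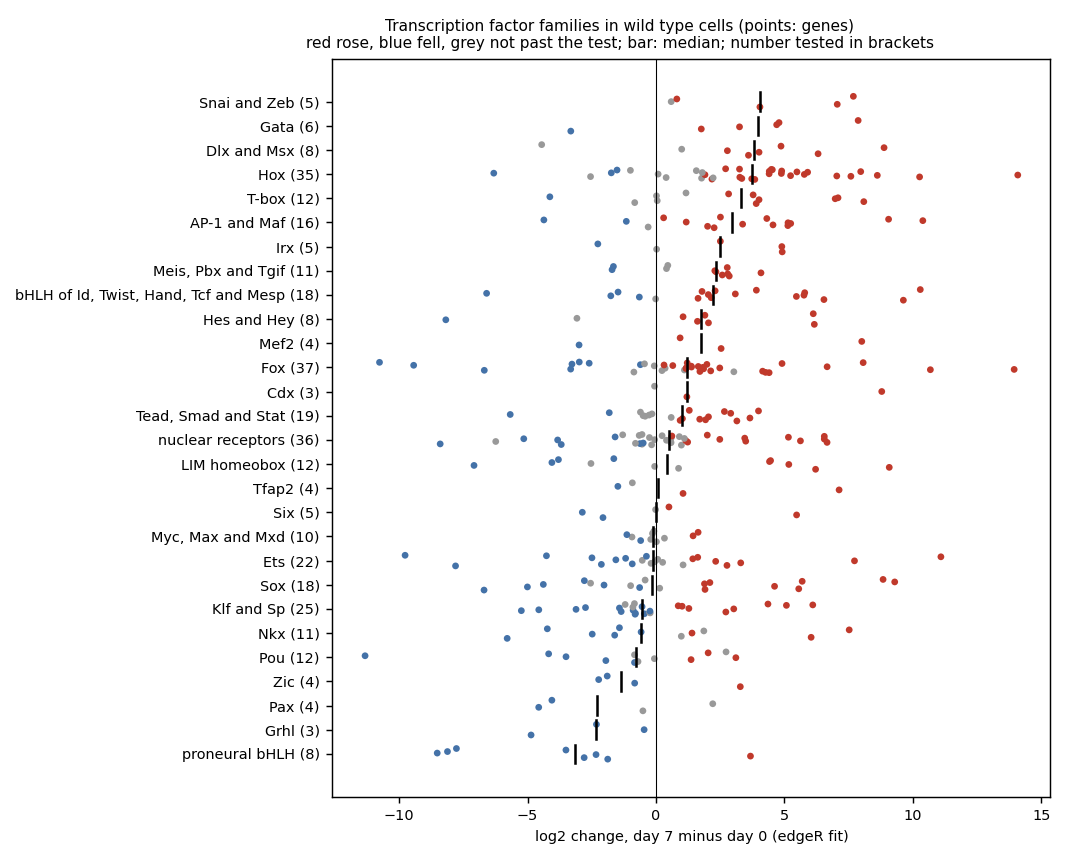
Log2 change from day 0 to day 7 in wild type cells for each tested gene of 28 transcription factor families (points; red rose, blue fell, grey not past the test), with the family median as a bar and the number tested in brackets. Fitted changes of genes with no counts at one day are drawn as fitted and are not bounds. The proneural and Grhl families lie to the left, and the Gata, Snai and Zeb, and Dlx and Msx families to the right.

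Over 28 transcription factor families, 361 of 427 genes were tested, and 180 rose (49.9%) against 95 that fell (26.3%). The Gata family rose in 5 of 6 members (median log2 change 3.98), with Gata3 up from 5.51, 5.51 and 4.06 CPM to 51, 50.9 and 42 CPM and Gata1 the exception. The T-box family rose in 7 of 12 and fell in 1. The Snai and Zeb family rose in 4 of 5, the Dlx and Msx family in 6 of 8 with none lower, and the AP-1 and Maf family in 13 of 16, among them Fosl2, up from 1.48, 0.965 and 1.77 CPM to 48.2, 61.1 and 48.9 CPM.

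Other families fell or divided by member. The proneural basic helix-loop-helix family fell in 7 of 8 (median log2 change -3.15), and the member that rose, Atoh8, reached 14.9 and 15.2 CPM in replicates 1 and 2 at day 7 but 1.51 CPM in replicate 3. All 3 Grhl factors of epithelia fell, Grhl3 from 36.5, 34.1 and 41.6 CPM to 6.1, 8.74 and 7.63 CPM. The Klf and Sp family had 8 higher and 12 lower of 25. The share that rose, 32.0%, is near the background of 32.9%, and 48.0% fell against 32.1%. Klf2 fell from 604, 551 and 543 CPM to 16.5, 14.9 and 13.4 CPM. Klf6 rose from 23.8, 21.8 and 22.7 CPM to 172, 203 and 181 CPM. Sp5, a Wnt target, rose from 1.96, 1.15 and 1.67 CPM to 55.6, 53.9 and 50.2 CPM. In the Sox family, Sox15 fell from 50.7, 34.4 and 36.7 CPM to 1.69, 1.04 and 1.05 CPM beside Sox2, and Sox11 rose from 5.83, 3.51 and 4.13 CPM to 227, 208 and 196 CPM. Among Ets factors Etv5 fell and Ets1 rose from 0.16, 0.353 and 0.208 CPM to 44.6, 58.8 and 60.3 CPM. Of the Fox family 22 of 37 rose and 8 fell, Foxq1 reaching 104, 107 and 92.5 CPM from under 1 CPM.

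Hox genes, which lay out position along the body axis in the order of their clusters, rose in 24 of 35 tested members and fell in 3. The Hoxb cluster rose in 8 of 10. Hoxb6 had no counts at day 0 and 69.2, 57.6 and 55.3 CPM at day 7, at least 1948-fold higher. Hoxb2 rose from 0.0799, 0.518 and 0.417 CPM to 75.6, 62 and 72.7 CPM, and Hoxb5 from 0.0799, 0.0471 and 0.0695 CPM to 29.7, 22.8 and 25.5 CPM. Hoxb8 was uneven, at 28.2, 17.3 and 4.8 CPM at day 7, and Hoxb9 and Hoxb13 did not pass. In another cluster Hoxc8 rose from 0, 0 and 0.139 CPM to 11.6, 11.4 and 11.5 CPM. The 3 that fell, Hoxc12, Hoxc13 and Hoxd13, lie at the posterior ends of their clusters, where Hoxa13 rose instead, from 0.399, 0.471 and 0.278 CPM to 2.96, 5.08 and 3.79 CPM.

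**Figure D4:**
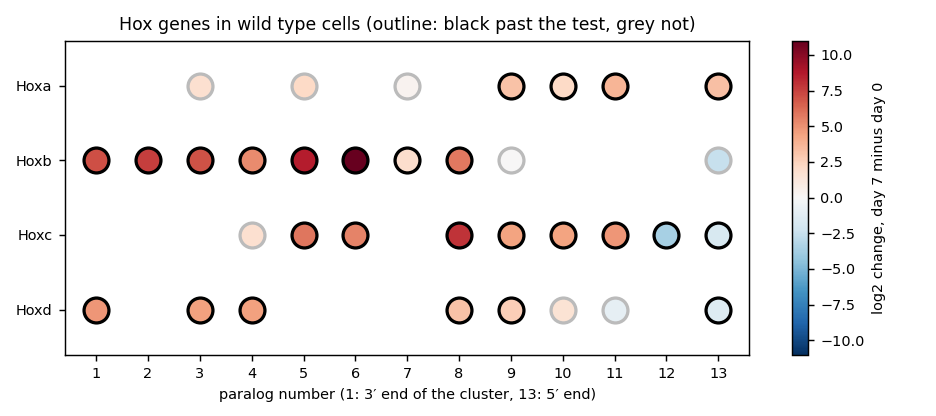
Log2 change of tested Hox genes from day 0 to day 7 in wild type cells by cluster (rows) and paralog number (columns), coloured from blue (lower) to red (higher), with genes that had no counts at one day set at their lower bound and a black outline where the test was passed. Hoxb1 to Hoxb8 are red throughout, and Hoxc12, Hoxc13 and Hoxd13 are blue.

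Among the 10 largest fitted rises of coding genes with at least 50 CPM at day 7 was Svep1, a matrix adhesion protein, which had no counts at day 0 and 87.8, 110 and 98.6 CPM at day 7 (at least 3168-fold higher). Sprr2a2, one of a family of near-identical cornified envelope genes whose reads may be split among copies, reached 74.2, 70.2 and 73.9 CPM from no counts. Pcdh7, a protocadherin, reached 44.9, 48.9 and 105 CPM from no counts, with the third library well above the other two. Prdm6, a factor of vascular smooth muscle, rose from 0, 0 and 0.139 CPM to 240, 249 and 214 CPM. Among the 10 largest fitted falls were Serpinb6c, from 41.6, 67.8 and 62.3 CPM to 0, 0.0594 and 0 CPM, and Calcoco2, from 652, 554 and 564 CPM to 0.439, 1.05 and 0.426 CPM. Besides Zfp42, genes of the naive and germline state such as Nr0b1, Tcl1, Morc1 and Ooep were among these 10, and Ooep, an oocyte protein, fell from 65, 108 and 102 CPM to 0.301, 0.43 and 0.542 CPM.

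Among long noncoding RNAs, Fendrr, which lies beside Foxf1 and acts in lateral mesoderm, had no counts at day 0 and 14.6, 13.6 and 10.7 CPM at day 7 (at least 416-fold higher). Airn, the imprinted antisense RNA of the Igf2r domain, rose from 0.0799, 0 and 0.243 CPM to 14.7, 19.6 and 11.8 CPM. Platr3 and Platr10, RNAs associated with pluripotency, fell, the second from 128, 129 and 126 CPM to 1.34, 1.87 and 1.9 CPM. Antisense genes that overlap a coding gene, Airn included, may share its reads.

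The transcripts used within a gene changed as well. Of 9301 genes with at least 2 measured transcripts, 1739 passed edgeR's gene-level test of transcript use (18.7%), and 924 (9.93%) also had a transcript whose share of the gene's output, per length, moved by 20 percentage points or more with no overlap between days. The gene-level test also called unchanged genes in simulated data, so a second test was added, limma on the log2 ratio of a transcript to the rest of its gene. It was past 0.05 for 418 of the 924. When any one wild type library was left out, 644 to 783 genes met the rule, and between 509 and 584 of them were among the 924. The gene itself rose for 560 of the 924, fell for 171 and did not pass for 193. Over all 19235 genes tested for their level, 32.9% rose and 32.1% fell, and these shares were not computed for the 9301. In a gene that is low at day 0, shares rest on few counts: Hoxb5-202 had 6 at day 0. Another transcript was the most used at day 7 in 600 of the 924. Transcripts that gained 20 points were annotated as protein coding in 675 of 831 cases and as a retained intron in 81. Of the 761 that lost 20 points, 514 were protein coding and 162 had a retained intron. The types of all tested transcripts were not counted, so these numbers are no measure of a shift between types. Short transcripts also weigh more per length: Palld-207, a retained intron form of 680 bases, changed by -27.5 points per length and by -4.52 points by counts.

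The FGF receptor gene Fgfr2 exchanged the exon in its extracellular immunoglobulin domains that sets which ligands bind. Mesenchymal cells use exon IIIc and epithelial cells use exon IIIb, an exchange that Esrp proteins govern in favour of IIIb. Fgfr2-211, which holds the IIIb exon, made up 52.3%, 61.8% and 74.4% of the gene's output at day 0 and 0.154%, 0.067% and 0.306% at day 7. Fgfr2-207, with the IIIc exon, went from 2.14%, 1.7% and 2.03% to 71%, 67.2% and 68.7%. The days lay far apart for both (gene-level adjusted p = 1.21e-06, and 0.0016 and 0.00011 by the ratio test), and the gene's level rose in the same comparison. Esrp1 was called slightly higher (10.9, 7.67 and 11.5 CPM, then 16.5, 12.6 and 13.9 CPM, adjusted p = 0.0401), a call lost without any one of 4 libraries (adjusted p = 0.0518 to 0.148). Both transcripts have 16 exons, and exon 6 carries the exchange. The exon that was lost, IIIb, is shown from Fgfr2-211 (GRCm38, minus strand, 148 bases at chr7:130199758-130199905).
Fgfr2-211: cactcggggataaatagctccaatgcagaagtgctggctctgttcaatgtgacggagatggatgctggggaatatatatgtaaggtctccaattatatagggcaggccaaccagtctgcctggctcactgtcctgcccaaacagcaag

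Other exchanges lay in genes of the cytoskeleton and cell polarity. Palld encodes palladin, an actin-bundling protein. Its short transcript Palld-202 went from 1.56%, 5.51% and 0.802% to 96.9%, 97.5% and 97.3%, and the long Palld-204 from 61.7%, 53.9% and 63.4% to 1.27%, 1.67% and 0.79%. The annotated starts of both forms lie 311527 bases apart, and the short one has 1989 coding bases against 4224. Tpm1, a tropomyosin, lost Tpm1-204, at 31.8%, 4.63% and 30.1% at day 0 and under 1% at day 7, while Tpm1-214, listed at 0 at day 0, reached 8.35%, 11.4% and 10.2%. The loss of Tpm1-204 was under the 20 points required when shares were taken from counts (-12.8 points), without the first day 0 library (-16.9 points) and without the third (-17.8 points). Dlg5, a scaffold at cell junctions, moved from Dlg5-202 (65.1%, 73% and 91.8%, then under 1%) to Dlg5-203 (under 2%, then 92%, 90.2% and 95%), which has 69 bases that the other lacks. Ckap5, a microtubule polymerase, gained Ckap5-202, listed at 0 and then at 87%, 94.2% and 92.6%, in place of Ckap5-204. Both have 6096 coding bases, and their annotated starts lie 19560 bases apart. Only 91 bases set the pair apart, all of them in Ckap5-204, so the exchange rests on a small part of the transcript. The loss of Ckap5-204, from 82.3%, 78% and 90.5% to under 4%, was not past the ratio test (adjusted p = 0.0823).

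Some exchanges concern regulators of transcription or of p53. For Mdm2, the ubiquitin ligase of p53, Mdm2-201 fell from 82.6%, 97.9% and 82.3% to 0.074%, 0.019% and 1.3%, and Mdm2-209, annotated for nonsense-mediated decay, rose from a share listed at 0 to 76%, 62.7% and 66.1%. The Mdm2 gene as a whole rose by 0.67 on the log2 scale (SE 0.08). Sp3 moved from the coding Sp3-202 (52.4%, 47% and 59% at day 0) to Sp3-204, an annotated transcript with no coding frame (92%, 93% and 84.8% at day 7). In Tead1, a partner of YAP, Tead1-201 fell from 94.2%, 86.7% and 73.5% to 0.349%, 2.47% and a share listed at 0. Rbbp8, a DNA end-resection factor, gained Rbbp8-201, listed at 0 and then at 93.7%, 89.6% and 90.1%, while Rbbp8-202 was uneven at day 0 (86.3%, 89.5% and 7.16%). For Ddr1, a collagen receptor, the lost form was the same in all libraries, but the gained form was not: Ddr1-204 had 0.847%, 0.479% and 84.6% at day 7. The exchange in Ddr1 did not pass limma's voom-based test of transcript use.

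**Figure D5:**
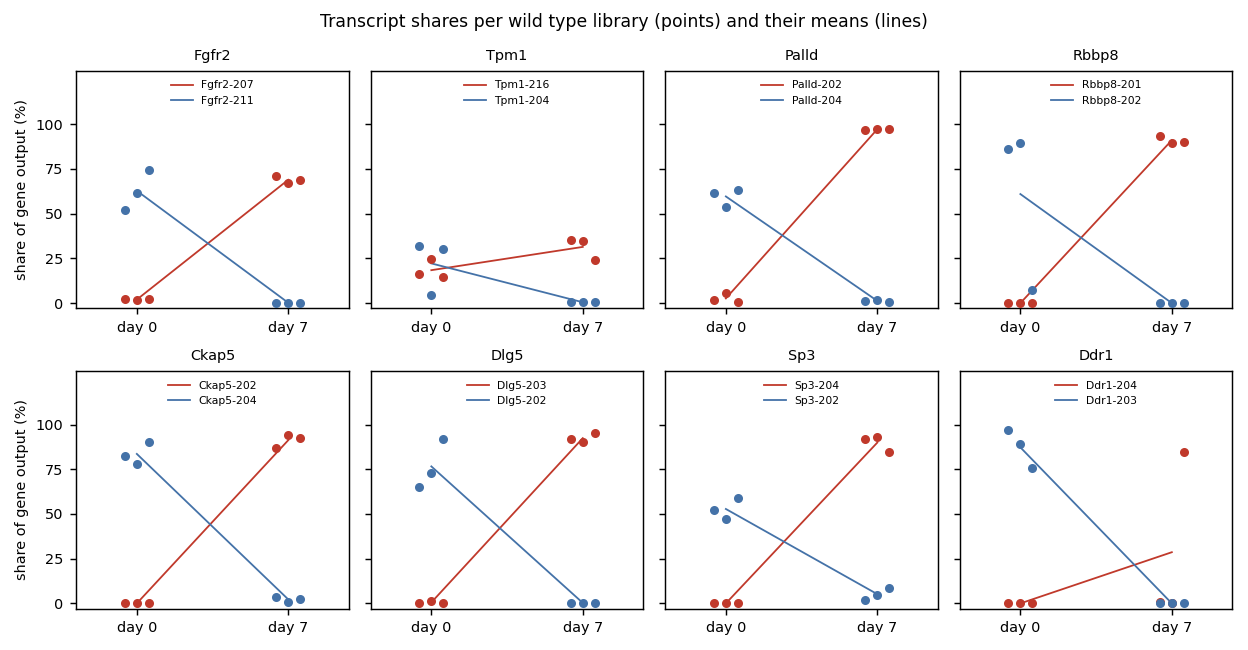
Share of a gene's output per length, in percent, of the transcript that gained most (red) and the one that lost most (blue) in 8 genes, with a point per wild type library and lines between the means of day 0 and day 7. The points of Fgfr2, Palld, Ckap5, Dlg5 and Sp3 separate fully by day, and those of Rbbp8-202 at day 0 and Ddr1-204 at day 7 are split among libraries.

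Of 54 tested genes known for regulated isoforms, 15 changed by the same rule (9.93% of all genes tested did), and 9 of the 15 also passed the ratio test. Of the Wnt effectors among the 15, Tcf7l2 passed the ratio test, while Tcf7 and Lef1 did not. Transcripts that differ little are hard to separate by counts: the pair exchanged in Zfp281, a zinc finger factor of the exit from naive pluripotency, differs by 4 bases, and its gained form had 80.1%, 100% and 100% at day 7. Myo1e-203 and Myo1e-201 differ by 74 bases. For Gata4, Hoxb5 and Llgl1 neither form passed the ratio test (adjusted p = 0.0579 to 0.145). The isoforms of Dnmt3b, Itga6, Fn1 and Rps24 did not meet the rule, and Dnmt3b-210, at 70.9%, 0.794% and 0.045% at day 0, was high in 1 library alone.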

How the data were processed

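The deposited tables hold estimated counts per gene and per transcript, made by the authors from polyA-selected libraries. The submitters' processing notes name, without their roles, StringTie 1.3.3, HISAT2 2.1.0, Trimmomatic 0.36 and others, with builds mm10 and GRCm38, and the strand setting is not given in the sources used here. All values were whole numbers. Identifiers were matched to the GENCODE M21 annotation for 99.53% of genes and 99.14% of transcripts.

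Groups came from the genotype and day in the labels. Counts of all 12 libraries were filtered by group, scaled by trimmed means of M-values and fitted with edgeR 4.0.16 (quasi-likelihood test, R 4.3.3), with wild type day 7 against day 0 as the contrast and a Benjamini-Hochberg adjusted p of 0.05 over all genes tested. SE is that of the log2 change. Where a group had no counts, the fold was computed against 3 counts over the group and given as a lower bound, which covers counting error only. A pair of libraries of one group differed by more than sampling noise in every case.

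Transcript use was tested with edgeR's gene-level test on the transcript counts, and shares were computed from counts per length. A change of 20 percentage points with no overlap between days was required. After the data were seen, 101 genes were left out because annotated transcripts held under 90% of their counts in a group, and limma 3.58.1 on log2 ratios was added because the gene-level test also called unchanged genes in simulated data. Both procedures, and the gene test, were tested on simulated data with known changes.

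The members and lists were chosen with earlier results of these data known. The text names the defining genes of each list whatever they did, up to 5 called members of a list with the largest change and at least 5 CPM, up to 3 of a transcription factor family each way, the 10 largest changes each way over coding genes of at least 50 CPM, 5 long noncoding RNAs each way at 10 CPM, and 12 isoform exchanges at 20 CPM with 5 more in transcription factors. Some genes and a sequence that the rules would name are not reported here. Single Hox genes beyond these were named after their values were seen. Alternatives were DESeq2 1.42.0, other size factors, upper quartile scaling, no filter, wild type libraries alone, the replicate number as a block, and leaving out each library. Same-numbered libraries of both days did not deviate together over all genes, so the numbers were not treated as pairs in the main fit.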

Additional observations from a re-analysis of the deposited data

Results flagged for a closer look

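Both genes given here changed more over the 7 days in the libraries labelled Sirt7 knockout than in wild type, by an interaction term in edgeR's quasi-likelihood test over all 19235 genes. Morc1, a germline gene that silences transposons, fell by 7.95 on the log2 scale in wild type and by 11.94 in the libraries labelled knockout, a difference of -3.991 (SE 0.46, adjusted p = 0.0152). In wild type it went from 133, 169 and 166 CPM to 0.532, 0.757 and 0.542 CPM, with 88 counts in total at day 7. Both falls are fitted values and not bounds, and their difference for Morc1 rests in part on such low counts. For Esrrb, the naive pluripotency receptor that went from 54.5, 38.5 and 38.5 CPM to 3.51, 3.74 and 2.86 CPM in wild type, the fall was 3.69 in wild type and 6.61 in the libraries labelled knockout, which differ by -2.921 (SE 0.32, adjusted p = 0.0152). Over all genes 5 passed this test, and 1319 had an unadjusted p of at most 0.05. Sirt7 RNA was higher in the libraries labelled knockout, for a reason not tested, so the direction of these differences rests on the genotype labels.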

How the results depend on the processing

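The number of genes called ran from 11498 to 12068 when 1 library was left out and from 11343 to 12969 under the other settings, and every gene called in both kept its sign. Of 354 named genes, 328 kept their call and direction under all alternatives, 17 lost a call under at least 1 and 8 gained one. Upper quartile scaling moved the split of calls to 5167 higher and 7605 lower and turned Nodal to a log2 change of -0.082. It also gave 11 members that fell among genes with known isoforms, 5 among Hox genes, 2 in the T-box family, 1 in Dlx and Msx, 2 in Hes and Hey, 11 among nuclear receptors, 4 in Tead, Smad and Stat and 5 in Myc, Max and Mxd. The scaling itself shifts the median of all genes, to -0.27, and for the settings that follow the cause was not tested. DESeq2 and its size factors alone each gave 2 T-box genes and 1 Dlx or Msx gene that fell. Without a filter on low counts, 2 imprinted genes and 1 gene of the Myc family fell.

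List medians are given here less the median of all genes. With wild type libraries alone, medians were 1.68 for blood, 2.30 for definitive endoderm, -4.07 for Pax, -1.01 for Nkx and -2.82 for proneural genes, and 2 Hippo, 3 Pou, 2 Hes and Hey, 4 Tead, Smad and Stat and 1 Myc family members fell. With the replicate number as a block, 11343 genes were called (11203 of them also in the fit without it), medians were 1.48 for paraxial mesoderm, 2.30 for blood, 3.47 for neural crest, 2.45 for Hippo and 3.95 for Hox genes, 1 primordial germ cell gene rose, and 1 BMP, 2 T-box and 3 Nkx genes fell. The correlation of same-numbered libraries, between -0.024 and 0.003, shows no pairing over all genes. It cannot show whether single genes vary with the replicate number, so a call lost under the block stays a limit of that call.

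Leaving out 1 library gave these lowest and highest medians: -5.35 and -5.195 for naive pluripotency, 1.31 and 1.66 for paraxial mesoderm, 5.74 and 6.69 for lateral plate mesoderm, 3.82 and 4.001 for smooth muscle, 1.77 and 2.08 for blood, 2.39 and 3.34 for definitive endoderm, 2.23 and 3.37 for neural crest, and 6.02 and 6.99 for fibroblast markers. Pathway and process medians ran from 2.13 to 2.34 for BMP, 2.93 to 3.34 for Wnt, 1.68 to 2.42 for Hippo, -0.16 to 0.054 for the cell cycle, -0.30 to -0.10 for glucose metabolism and 2.05 to 2.28 for imprinted genes. Family medians ran from -1.004 to -0.13 for Pou, 1.12 to 1.39 for Fox, 3.53 to 3.999 for Hox, 3.25 to 4.46 for Dlx and Msx, 2.24 to 2.54 for Meis, Pbx and Tgif, -3.61 to -2.93 for proneural genes, 0.11 to 0.52 for nuclear receptors and 0.91 to 1.18 for Tead, Smad and Stat. Members that fell numbered 0 to 2 for BMP, 2 to 4 for imprinted genes, 3 to 5 for Pou, 1 to 2 for T-box, 0 to 1 for Dlx and Msx, 2 to 5 for Nkx, 1 to 2 for Tfap2, Hes and Hey, and Myc, and 2 to 4 for the Id, Twist and Hand family. Members that rose numbered 0 to 1 for primordial germ cells and Pax. Rlim ran from -0.5 to 0.412 on the log2 scale, the last without day 7 replicate 3, and the share of Dnmt3b-210 changed by between -35.4 and 0.047 points, the last without day 0 replicate 1.

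Genes with an isoform exchange numbered 594 when transcripts needed 50 counts and 490 by the ratio test alone, against 924. They numbered 790 with limma's voom (577 of them among the 924), 802 with shares from counts (765), 881 with wild type libraries alone (731), 620 with the replicate block (546), and 644 to 783 without 1 library (509 to 584). The exchange in Hoxb5 was lost under 10 alternatives. Fewer transcripts were tested when 50 counts were needed. Genes at or under about 1 CPM, such as Sox10 and Hoxc12, rest on few counts, and their changes are the least precise.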

Other observations

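Small nucleolar RNA genes and processed pseudogenes were called lower at day 7 more often than higher. Of 76 snoRNA genes tested, 39 fell and 1 rose (median log2 change -1.45), and of 2040 processed pseudogenes 805 fell and 222 rose (-0.50), while of 14916 coding genes 4700 fell and 5677 rose (0.14). Processed pseudogenes share reads with their parent genes, and polyA selection captures snoRNA poorly, so these counts are uncertain. Of 32 genes of the mitochondrial genome 18 fell and 3 rose (median log2 change -0.85), and their share of all counts was between 3.17% and 3.95% at day 0 and between 2.83% and 3.28% at day 7, which overlap.

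Rps24, a ribosomal protein gene with regulated last exons, fell from 2143, 2537 and 2424 CPM to 1326, 1136 and 1153 CPM. Its transcript Rps24-210 went from 44.5%, 47.7% and 47.9% of the gene's output to 36.0%, 35.9% and 34.8%, with no overlap between days, but the gene did not pass the test of transcript use (adjusted p = 0.200 in edgeR). The 10 most abundant genes took between 5.61% and 5.97% of counts at day 0 and between 4.90% and 5.06% at day 7.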
